A study of Mus musculus with 13 samples.

Results

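The comparison described here sets mammary tumors that had come back after treatment against primary mammary tumors, with every mouse drinking stavudine. It covers 5 of the 13 libraries of the series. The other 8 are tumors of mice on plain water (6) and mammary glands (2, not used here). The tumors of each group were assigned by the sample labels: 3 primary tumors of mice given stavudine in the drinking water, and 2 tumors that recurred after 17-DMAG in mice kept on stavudine. The choice of samples was made with earlier results of these data known. All 13 libraries came from FVB/N mice that the labels name by the strain TgN (MMTV-HER2/neu) 202Mul/J, with the genotype entered as wild type. That strain nevertheless carries a rat HER2/neu transgene, driven in mammary epithelium by the promoter of the mouse mammary tumor virus, so its tumors are models of HER2-driven disease in that epithelium only. Stavudine was supplied at 1 mg/mL, estimated in the labels at 200 mg/kg per day, from 2 months of age at the earliest or from the time a primary tumor was seen. The labels do not say which start applies to which mouse, and give no ages. The study describes the primary stavudine tumors as having developed in stavudine-treated mice, and does not say which start applies to the recurrent tumors sequenced. 17-DMAG was injected at 20 mg/kg into the mice whose tumors later recurred. Per the study's methods, the injections went on until the regrown tumors reached the end point size, when the mice were killed. The primary stavudine tumors received none, so recurrence, exposure to 17-DMAG and any difference in time on stavudine cannot be told apart in this comparison. The tumors on plain water, 3 primary untreated and 3 recurrent after 17-DMAG, are used below only to show where the stavudine tumors differ.

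17-DMAG blocks HSP90, a chaperone on which HER2 and many other kinases depend for their folding, and cells answer its block by making more heat shock proteins. Stavudine is a thymidine analog that is phosphorylated inside cells and then stops reverse transcriptases, those of retroviruses and those encoded by the LINE-1 elements of the genome. A tumor that regrows after a response to treatment has to rebuild itself from the cells that survived. Its RNA reports on the dividing cancer cells together with the stroma and the leukocytes around them. In RNA of whole tumors, fewer cells of a type and less RNA per cell cannot be told apart.

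The libraries of the 5 stavudine tumors held 39921388 to 49484412 counts, so that 3 counts, taken as the floor of detection, were worth 0.0618 to 0.0730 CPM (counts scaled to the size of the library). All CPM values are scaled with TMM factors, which ran from 0.982 to 1.03 in these tumors. Luminal epithelial markers, which define the labelled mammary tumor, were abundant in all 5 tumors, at a sum of 3201 to 5600.2 CPM. Erbb2, which also collects reads of the rat transgene, was at 9573, 11429 and 9521 CPM in the primary tumors and at 13771 and 8162 CPM in the recurrent tumors, and the groups overlapped. Recurrent tumor 2 stood apart. Between any pair of primary tumors, 3.64 to 6.83% of genes were more than 2-fold apart. Recurrent tumor 1 differed from the primary tumors at 6.83 to 9.34% of genes, recurrent tumor 2 at 13.3 to 16.3%, and the recurrent tumors differed from each other at 10.3%. Recurrent tumor 2 also held skeletal muscle transcripts, at a sum of 6369 CPM over 16 genes, against 80.9 CPM in recurrent tumor 1 and 26.2, 552 and 32.5 CPM in the primary tumors. The labels do not say whether the tumors of a group came from different mice, so the p-values below measure the spread between these samples.

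In both recurrent tumors, genes of secreted inflammatory proteins, macrophages and fibroblasts were mostly at higher levels than in all 3 primary tumors, and genes of mitosis were at lower levels, with a median log2 fold change of -1.21 over 37 genes. The metabolic gene Tkt, at 355 and 453 CPM against 140.0 to 164 CPM, had the smallest p. No single gene passed the test across all genes, so none is called changed below.

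Of 16870 genes tested with edgeR across all 11 tumors, none passed an adjusted p of 0.05 between recurrent and primary stavudine tumors (0%). The smallest adjusted p was 0.0854. At an unadjusted p under 0.05, 1696 genes (10.1%) differed, 914 higher (5.42%) and 782 lower (4.64%) in the recurrent tumors. The groups did not overlap at 2972 genes that were higher (17.6%) and 2975 that were lower (17.6%). DESeq2 on the same counts called 331 genes (1.96%), 163 higher (0.966%) and 168 lower (0.996%), and limma voom called none (0%), with 1592 genes at an unadjusted p under 0.05. The count of edgeR calls rests on single libraries: it was 100 when recurrent tumor 1 was left out, 18 when replicate 1 of the recurrent tumors on plain water was left out, and 0 when recurrent tumor 2 was left out. With 2 tumors against 3, an exact permutation test of a single value cannot give a two-sided p under 0.1. The genes below are therefore described by their levels in each tumor, and log2 fold changes (recurrent minus primary) are given with their standard errors (SE).

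The gene with the smallest p was Tkt (chr14:30549131-30574724, GRCm38), which encodes transketolase, an enzyme of the non-oxidative branch of the pentose phosphate pathway. Its level was 140.0, 164 and 162 CPM in primary tumors 1 to 3, and 355 and 453 CPM in recurrent tumors 1 and 2. The recurrent tumors lay above the primary tumors with a log2 fold change of 1.38 (SE 0.15) and an adjusted p of 0.0854 by edgeR, which ranged from 2.57e-12 with DESeq2 to 0.546 over the alternatives tried. On plain water the same gene was at 201, 182 and 155 CPM in primary and at 179.6, 167 and 191 CPM in recurrent tumors. The log2 fold changes of the arms differed by 1.38 (SE 0.20, adjusted p = 0.435 by edgeR).

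**Figure D1:**
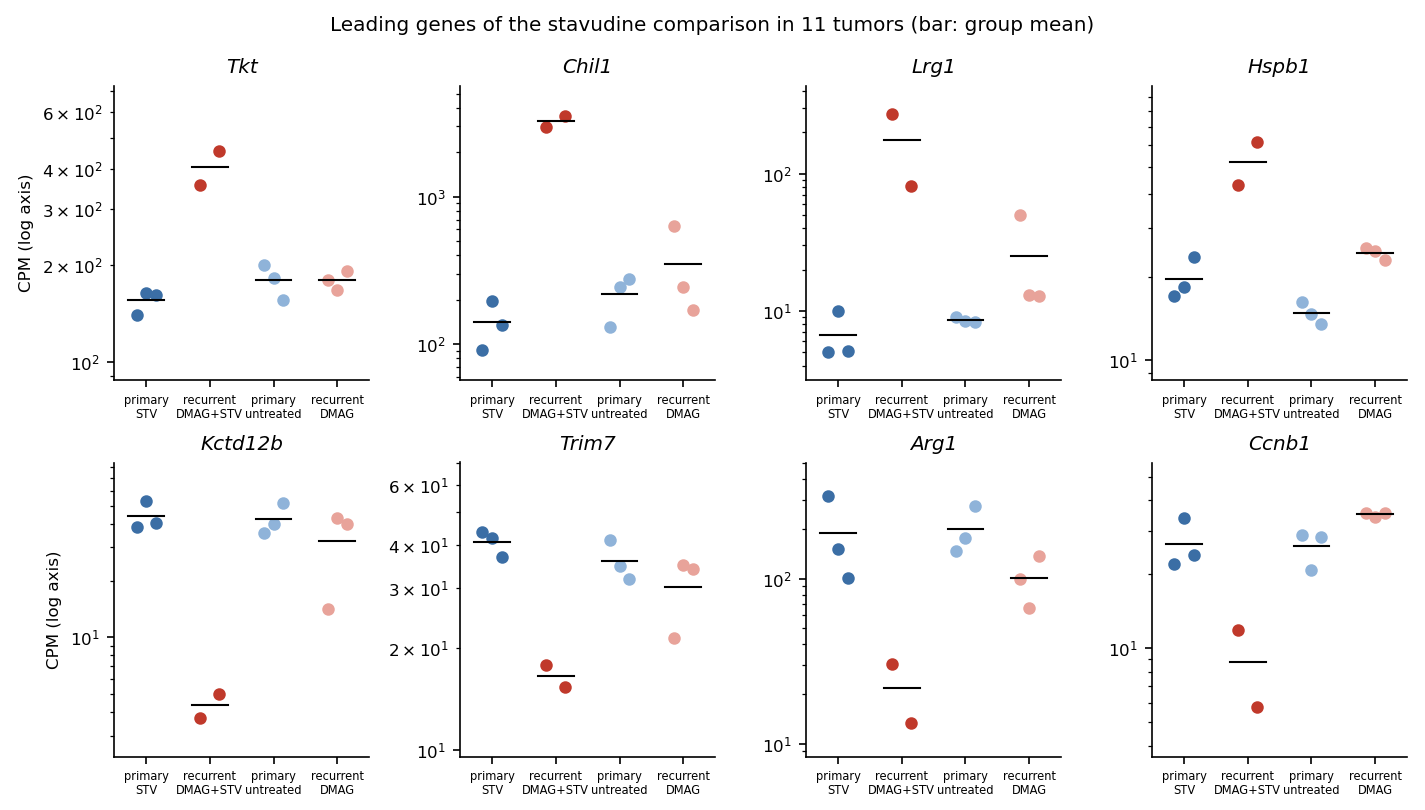
CPM (log axis) of 8 genes with small p-values in the stavudine comparison, with a point for each of the 11 tumors and a bar at each group mean. Tkt, Chil1, Lrg1 and Hspb1 lie higher in both recurrent stavudine tumors than in every primary stavudine tumor, and Kctd12b, Trim7, Arg1 and Ccnb1 lie lower. Tkt reaches 355 and 453 CPM against 140.0 to 164 CPM.

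The rest of that pathway did not share the pattern of Tkt. Of its 10 genes tested, 4 were higher and 6 lower, with a median log2 fold change of -0.04, beside 0.01 over all genes. G6pdx, the entry enzyme of the oxidative branch, was at 96.0, 69.8 and 54.9 CPM in the primary and 74.5 and 70.6 CPM in the recurrent tumors. Taldo1, which works beside transketolase, overlapped as well, at 109 to 129 CPM against 121 and 143 CPM. Rpia, the isomerase that makes ribose phosphate, was the other member with an unadjusted p under 0.05 and was lower in the recurrent tumors, at 18.8 and 15.7 CPM against 22.2 to 24.9 CPM (log2 fold change -0.46, SE 0.14). Among 21 genes of glycolysis and the hypoxia response the median was 0.18, and 0.022 without recurrent tumor 2. Pfkp, the platelet form of phosphofructokinase, was at 134 and 253 CPM against 70.6 to 121 CPM (1.07, SE 0.30). Among 15 genes of fatty acid synthesis the median was 0.20, and Thrsp, a regulator of lipogenesis, stood out in recurrent tumor 2 at 326 CPM, against 78.2 CPM in recurrent tumor 1 and 26.6 to 52.9 CPM in the primary tumors.

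Genes of secreted inflammatory proteins were at higher levels in the recurrent tumors. Acute phase proteins are released in response to cytokines such as IL-6 and IL-1, mainly by the liver and also by epithelia. Of 25 such genes listed, 23 passed the filter on low counts, and all 23 had a log2 fold change above 0, with a median of 1.64 beside 0.01 over all genes. At an unadjusted p under 0.05, 15 of them were higher, where 5.42% of all genes were. At 18 the groups did not overlap, where 17.6% of all genes were higher without overlap, and DESeq2 called 6, where it called 0.966% of all genes as higher. With recurrent tumor 1 left out the median was 1.53, and with recurrent tumor 2 left out it was 1.44. Since a gene raised in the recurrent tumors alone can pass the filter through them, the count over tested members is a description.

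Chil1, which encodes a secreted chitinase-like glycoprotein, was at 91.0, 196 and 134 CPM in the primary tumors and at 2971 and 3529 CPM in the recurrent tumors. Its log2 fold change was 4.54 (SE 0.59, adjusted p = 0.154 by edgeR, 1.95e-12 to 0.546 over the alternatives). Lrg1, a secreted leucine-rich glycoprotein of the acute phase, was at 5.01, 10.0 and 5.11 CPM against 271 and 81.1 CPM (4.71, SE 0.71). Among the members outside the 3 with the smallest p, those described here (Lcn2, Steap4, Saa1, Saa2, Cp, Socs3 and Osmr) were chosen after their values were seen. Both Chil1 and Lrg1 were far above every primary tumor in each recurrent tumor, and the recurrent tumors on plain water were lower than both, since there Chil1 was at 632, 242 and 169 CPM and Lrg1 at 49.5, 13.1 and 12.9 CPM. Lcn2, lipocalin 2, which withholds iron from bacteria, was already abundant at 1362, 2141 and 1942 CPM and reached 5747 and 5076 CPM (1.58, SE 0.40). Serpina3n, a secreted protease inhibitor, was at 17.8, 35.8 and 21.5 CPM against 92.6 and 75.5 CPM (1.75, SE 0.33). Steap4, a metalloreductase induced by inflammatory cytokines, was at 5.51 to 14.7 CPM against 24.4 and 60.3 CPM (1.98, SE 0.43). In each of these 5 genes the lower recurrent tumor was above the highest primary tumor.

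Saa1 and Saa2, near-identical serum amyloid genes whose reads the counting could share, were at 0.0459 to 0.487 CPM in the primary tumors and at 6.11 to 11.8 CPM in the recurrent tumors. Some of the primary values lie under the floor of 3 counts, and both genes were higher still in replicate 1 of the recurrent tumors on plain water, at 103 and 64.4 CPM. The groups overlapped at Cp, ceruloplasmin, with 489.9 to 1099 CPM against 1642 and 331 CPM. They did not overlap at Socs3 and Osmr. Socs3, the feedback inhibitor of STAT3 signaling, was at 1.51 to 2.66 CPM against 8.07 and 10.8 CPM, and Osmr, the oncostatin M receptor, at 53.7 to 106 CPM against 222 and 144 CPM.

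**Figure D2:**
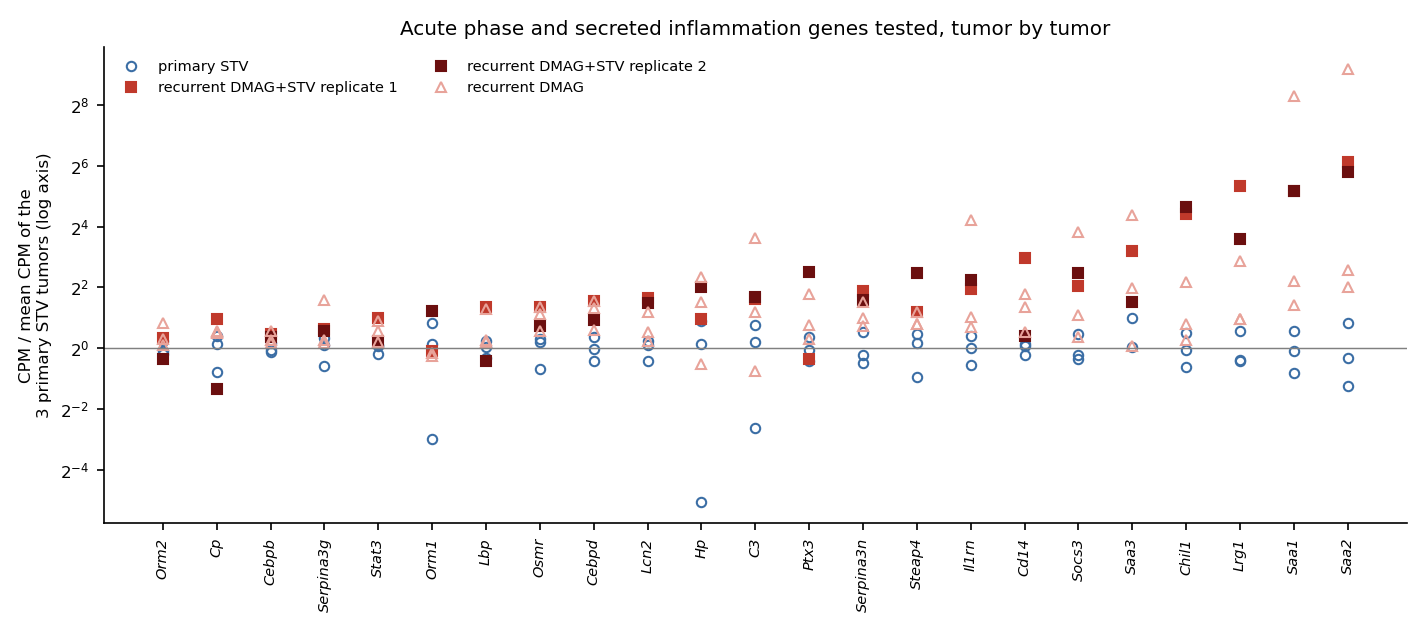
Each of the 23 acute phase and secreted inflammation genes tested, as CPM divided by the mean CPM of the 3 primary stavudine tumors (log axis), with 1 symbol per tumor. Points at 0 CPM are not drawn. The filled squares of the recurrent stavudine tumors lie above all primary stavudine tumors at 18 of 23 genes, and the open triangles of the recurrent tumors on plain water are shown for comparison.

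A short sequence was frequent in the promoters of this list. RefSeq promoters (250 bases before to 50 bases after the start of transcription, GRCm38.p6) were found for 20 of the 25 genes. The letters TTGCNNAA, a core of the sites bound by C/EBP factors, which drive acute phase genes, were searched on either strand. They stood in 10 of these 20 promoters (50%), against 10.8% of all 27025 promoters and 8.81% of those of genes tested here. The 10 include the related genes Saa1, Saa2 and Saa3 as well as Orm2 and Orm3, which may not count as separate promoters. The STAT form TTCNNNGAA stood in 15% of the 20 promoters, against 8.47% of all promoters. A loose form of the NF-kB site stood in 75%, against 50.4% of all promoters and 64.8% of those of genes tested here. Such matches describe letters and do not show binding. The promoters of Lcn2 (chr2:32387690-32387989, minus strand) and Steap4 (chr5:7960222-7960521, plus strand), both of which DESeq2 called, are shown 5′ to 3′ with the TTGCNNAA match in capitals, since they hold the match.
Lcn2: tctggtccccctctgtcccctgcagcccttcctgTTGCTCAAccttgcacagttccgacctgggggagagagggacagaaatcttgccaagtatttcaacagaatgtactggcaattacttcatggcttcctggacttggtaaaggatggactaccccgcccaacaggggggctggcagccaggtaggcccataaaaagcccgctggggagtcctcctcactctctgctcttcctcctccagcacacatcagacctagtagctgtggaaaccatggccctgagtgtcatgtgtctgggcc
Steap4: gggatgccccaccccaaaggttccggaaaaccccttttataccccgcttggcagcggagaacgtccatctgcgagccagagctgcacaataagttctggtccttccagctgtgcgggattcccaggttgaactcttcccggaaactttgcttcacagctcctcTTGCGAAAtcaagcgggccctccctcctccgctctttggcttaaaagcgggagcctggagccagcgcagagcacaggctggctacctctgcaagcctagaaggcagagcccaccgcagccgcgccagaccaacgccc
The match begins 216 bases before the start of Lcn2 and 87 bases before that of Steap4. Chil1 and Lrg1 had no TTGCNNAA in this window.

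Targets of NF-kB, the transcription factor of TNF signaling, were less uniform. Of 30 genes tested, 20 were higher and 10 lower, with a median of 0.39, which was 0.044 without recurrent tumor 1 and 0.53 without recurrent tumor 2. Bcl3, a nuclear partner of NF-kB, was at 4.72, 5.42 and 7.76 CPM against 24.2 and 18.3 CPM (1.83, SE 0.52). Cxcl1, a chemokine for neutrophils, was at 1.06 to 1.68 CPM against 3.11 and 3.39 CPM, and Lif, a cytokine of the IL-6 family, at 1.92 to 2.25 CPM against 6.32 and 13.6 CPM. Tnf itself was on the other side, at 3.75, 1.54 and 3.04 CPM against 1.32 and 0.690 CPM (-1.46, SE 0.75).

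Genes of mitosis were lower in the recurrent stavudine tumors. The list holds cyclins, kinases and motors that act between the end of DNA synthesis and cell division. Like the other gene lists, it was chosen with earlier results of these data known, so counts of its members are a description. Of its 37 genes, all tested, all were lower with an unadjusted p under 0.05, against 4.64% of all genes in that direction. At 36 of the 37 the groups did not overlap (against 17.6% lower among all genes), DESeq2 called 23 (against 0.996% lower among all genes), and the median log2 fold change was -1.21, from -0.49 to -2.04. The sum over the list was 1198, 1845 and 1570 CPM in the primary tumors and 855 and 390.1 CPM in recurrent tumors 1 and 2. Both recurrent tumors were below all primary tumors, and recurrent tumor 2 was the lower. With recurrent tumor 2 left out, 23 of the 37 genes kept an unadjusted p under 0.05 at a median of -0.80, in a fit where 275 of 17357 genes were lower at that level. With recurrent tumor 1 left out instead, the median was -1.98.

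Ccnb1 and Ccnb2, the B-type cyclins that bring CDK1 into mitosis, were among the 12 lower genes with the smallest p. Ccnb1 was at 22.0, 33.9 and 24.1 CPM in the primary tumors and at 11.8 and 5.78 CPM in the recurrent tumors (-1.60, SE 0.31, adjusted p = 0.254 by edgeR). Ccnb2 was at 16.5, 23.2 and 23.7 CPM against 8.05 and 3.65 CPM (-1.85, SE 0.36). Cenpa, the histone variant that marks centromeres, was at 15.1, 23.2 and 21.0 CPM against 9.18 and 4.38 CPM (-1.54, SE 0.30). In each of these genes recurrent tumor 1 was below the lowest primary tumor and recurrent tumor 2 lower still. Mki67, the widely used marker of cycling cells, was at 327, 506 and 439.9 CPM against 209 and 88.7 CPM (-1.51, SE 0.33). Further members were picked after their values were seen. The largest difference on the list was at Cenpf, a kinetochore protein, with 87.7, 160.5 and 109 CPM against 43.6 and 14.4 CPM (-2.04, SE 0.46), and the smallest at Incenp, the scaffold of Aurora B, with 20.1 to 26.8 CPM against 19.2 and 14.7 CPM (-0.49, SE 0.21). Espl1, the separase that releases sister chromatids, was the member whose groups overlapped, since recurrent tumor 1 and primary tumor 1 were both at 14.3 CPM.

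**Figure D3:**
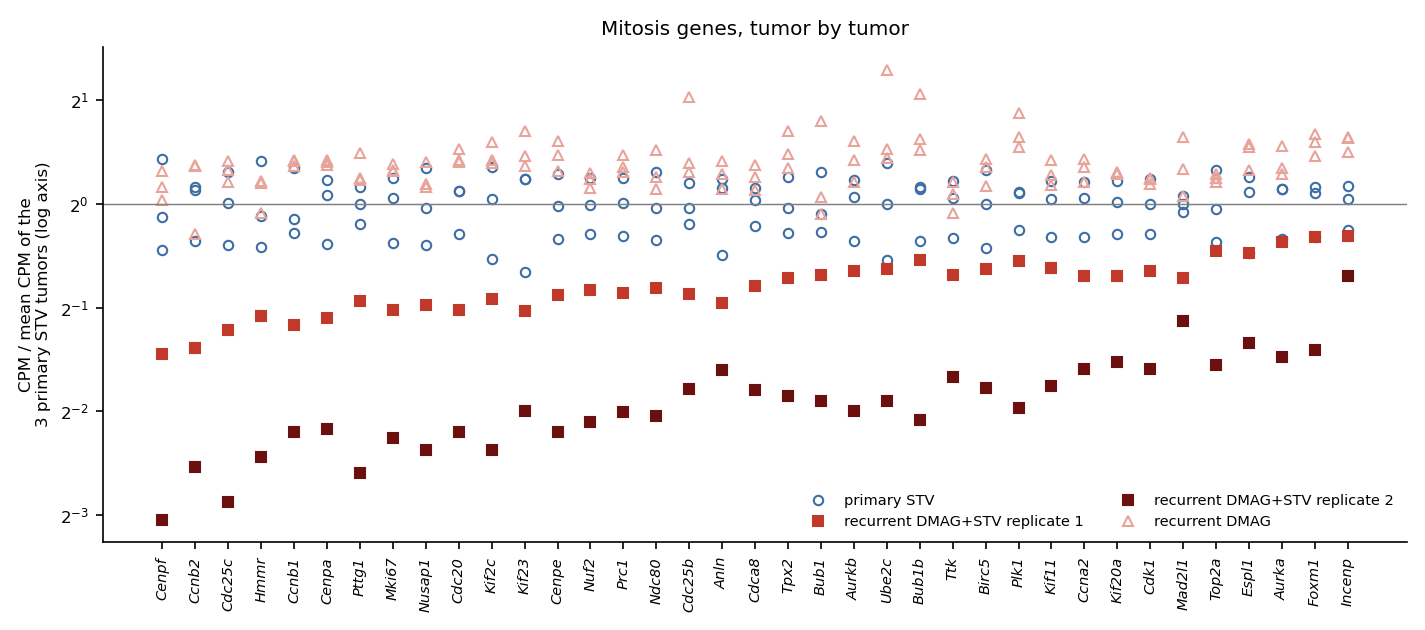
The 37 mitosis genes, each as CPM divided by the mean CPM of the 3 primary stavudine tumors (log axis), with 1 symbol per tumor, ordered by log2 fold change. Recurrent stavudine tumor 2 (dark squares) is lowest at every gene and tumor 1 (red squares) lies between it and the primary stavudine tumors (open circles) at all but Espl1, where it meets the lowest of them, and the open triangles are the recurrent tumors on plain water, most of them above the line at 1.

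Other genes of division lay among the 12 lower genes with the smallest p without being on the list. Knstrn, a kinetochore and spindle protein, was at 27.1, 36.0 and 29.5 CPM against 14.9 and 7.90 CPM (-1.44, SE 0.25). Cdkn3, a phosphatase that acts on cyclin-dependent kinases, was at 4.84, 7.72 and 5.73 CPM against 1.87 and 1.38 CPM (-1.90, SE 0.34). H2afz, the histone variant H2A.Z, was at 79.5 to 89.8 CPM against 52.6 and 40.3 CPM (-0.84, SE 0.16).

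Mitotic genes share a known promoter architecture, in which CCAAT boxes bound by NF-Y stand upstream of a cell cycle homology region (CHR, letters TTTGAA) bound by the MuvB complexes. Promoters were found for 30 of the 37 genes. A CCAAT box on either strand was in 22 of them (73.3%), against 37.9% of all promoters, TTTGAA in 21 (70%), against 18.1%, and both in 18 (60%), against 7.12%. The letters were searched with no regard to spacing, and a match is a description of sequence. The promoters of Ccnb2 (chr9:70421505-70421804, minus strand), Cenpa (chr5:30666636-30666935, plus strand) and Mki67 (chr7:135716330-135716629, minus strand) are shown 5′ to 3′ because these genes carry the result above and hold both motifs, with CCAAT, its reverse complement ATTGG and TTTGAA in capitals.
Ccnb2: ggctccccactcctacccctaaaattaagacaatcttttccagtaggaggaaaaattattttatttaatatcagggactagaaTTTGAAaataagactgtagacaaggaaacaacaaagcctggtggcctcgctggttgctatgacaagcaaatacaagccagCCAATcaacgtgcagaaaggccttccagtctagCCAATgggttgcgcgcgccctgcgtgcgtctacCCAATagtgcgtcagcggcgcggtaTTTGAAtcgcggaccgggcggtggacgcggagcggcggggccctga
Cenpa: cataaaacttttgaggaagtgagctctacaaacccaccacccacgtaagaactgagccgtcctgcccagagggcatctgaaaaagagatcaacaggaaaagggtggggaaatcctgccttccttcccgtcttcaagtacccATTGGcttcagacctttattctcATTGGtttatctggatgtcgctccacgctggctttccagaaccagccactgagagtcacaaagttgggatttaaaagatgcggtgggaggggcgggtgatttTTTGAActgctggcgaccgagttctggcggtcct
Mki67: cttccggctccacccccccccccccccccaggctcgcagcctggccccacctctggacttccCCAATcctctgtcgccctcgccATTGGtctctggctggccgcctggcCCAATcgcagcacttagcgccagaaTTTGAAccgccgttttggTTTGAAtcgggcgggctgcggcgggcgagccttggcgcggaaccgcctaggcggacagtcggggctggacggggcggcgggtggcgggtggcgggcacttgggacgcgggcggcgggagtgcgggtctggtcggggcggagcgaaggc
In Ccnb2 the TTTGAA nearest the start begins at base 5 of the transcript, downstream of 3 CCAAT boxes whose nearest begins 21 bases before the start. In Cenpa it begins at base 17, and in Mki67 a pair of them begin 116 and 98 bases before the listed start. Ccnb1 had a CCAAT box but no TTTGAA in this window.

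Genes of DNA replication and nucleotide supply differed less. Of 34 genes, 32 were lower, with a median of -0.23, and 7 of them had an unadjusted p under 0.05, where 4.64% of all genes were lower, and DESeq2 called none. Without recurrent tumor 2 the median was -0.07, and without recurrent tumor 1 it was -0.51. Pola1, the catalytic subunit of DNA polymerase alpha, was at 51.5, 57.9 and 58.8 CPM against 40.6 and 26.5 CPM (-0.74, SE 0.23). Tyms, thymidylate synthase, was at 32.0, 41.9 and 35.0 CPM against 28.4 and 16.3 CPM, and Pcna, the sliding clamp, at 75.8 to 84.0 CPM against 61.4 and 46.6 CPM. Orc1, of the origin recognition complex, was the member farthest in the other direction, at 5.07 to 6.20 CPM against 6.51 and 6.11 CPM. The sites of E2F factors, which drive replication genes, were searched on either strand as TTGGCGC, with the further form TTCCCGC and also the form TTCGCGC. At least 1 of these was in 57.1% of the 28 promoters found for this list, against 13.3% of the mitosis promoters and 8.21% of all promoters. Over the promoters of genes tested here the share was 13.4%.

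Inhibitors of the cell cycle did not form a block. Of 13 genes tested, 9 were higher, with a median of 0.09. Rb1, the retinoblastoma protein that holds E2F factors in check, was at 91.7, 106 and 108 CPM against 398 and 188 CPM (1.52, SE 0.33). Gas1, a growth arrest protein at the cell surface, was at 13.4 to 23.3 CPM against 28.7 and 34.0 CPM (0.87, SE 0.28). Cdkn1a, which encodes p21, was at 4.26, 15.5 and 6.94 CPM against 27.1 and 125 CPM (3.09, SE 1.10), highest by far in recurrent tumor 2. Of 17 p53 targets, 16 were higher, with a median of 0.74, and 5 had an unadjusted p under 0.05 (against 5.42% higher among all genes). The list rests on recurrent tumor 2: without it the median was 0.15, whereas without recurrent tumor 1 it was 1.03. Zmat3, an RNA-binding protein induced by p53, was at 21.9 to 31.1 CPM against 38.5 and 130.3 CPM, and Sesn2, a stress-induced regulator of mTORC1, at 7.30 to 9.42 CPM against 10.2 and 32.9 CPM. In both, recurrent tumor 1 was just above the primary tumors.

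Other genes were among the 12 with the smallest p in each direction. Among the higher ones, Tgm2, tissue transglutaminase, was at 134, 132 and 155 CPM against 249 and 445 CPM (1.31, SE 0.21). Il13ra1, a receptor chain for IL-13 and IL-4, was at 13.4 to 18.8 CPM against 45.3 and 51.4 CPM (1.62, SE 0.27). Prune, Fbxw4 and Lurap1l had log2 fold changes of 0.93 (SE 0.14), 0.98 (SE 0.16) and 0.79 (SE 0.13). Pcdhgb2 and Pcdhgc3, at 1.82 (SE 0.28) and 2.23 (SE 0.39), belong to the protocadherin gamma cluster, whose genes share their last exons, so their reads cannot be told apart with certainty. Among the lower ones, Kctd12b, of a family of potassium channel tetramerization domain proteins, had the smallest p. It was at a mean of 44 ± 7.89 CPM (SD, n = 3) against 3.71 and 5.01 CPM (-3.34, SE 0.47, adjusted p = 0.196 by edgeR). Trim7, a ubiquitin ligase, was at 43.8, 42.1 and 36.8 CPM against 17.8 and 15.3 CPM (-1.31, SE 0.23). Lman1, a cargo receptor between the endoplasmic reticulum and the Golgi, was at 355 to 455 CPM against 231 and 205 CPM (-0.85, SE 0.17), and Gga2, a clathrin adaptor, at 52.6 to 62.4 CPM against 35.2 and 36.8 CPM (-0.70, SE 0.14). The last of the 12, 4930523C07Rik, had a log2 fold change of -1.18 (SE 0.23).

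HSP90 chaperones and their partners were compared because 17-DMAG acts on HSP90. Of 30 genes, 23 were higher and 7 lower, with a median of 0.25. Hspb1, the small heat shock protein HSP27, was at 17.0, 18.3 and 23.7 CPM against 43.2 and 61.6 CPM (1.41, SE 0.19, adjusted p = 0.154 by edgeR). Hsp90ab1, the constitutive cytosolic HSP90, was at 1185, 1075 and 1206 CPM against 1663 and 1656 CPM (0.52, SE 0.14). The stress-inducible Hsp90aa1 was at 264 to 312 CPM against 319.5 and 360.1 CPM (0.24, SE 0.19). The chaperones of the endoplasmic reticulum were on the other side: Hsp90b1 (GRP94) was at 1224, 1252 and 1089.7 CPM against 704 and 562 CPM (-0.91, SE 0.27), and Hspa5 (BiP) at 722 to 826 CPM against 586 and 485 CPM (-0.55, SE 0.31). Hspa1a and Hspa1b, the inducible HSP70 paralogs that serve as a readout of an HSP90 block and whose reads can be shared, overlapped between the groups. Their levels were 8.09 to 12.7 CPM against 20.7 and 9.08 CPM, and 20.9 to 32.9 CPM against 43.9 and 24.2 CPM.

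Genes that handle 17-DMAG gave a mixed picture, with a median of 0.28 over 25 genes. Nqo1, the quinone reductase that turns the drug into its active hydroquinone, was at 8.45, 12.5 and 17.7 CPM against 46.9 and 17.2 CPM, an overlap. Its relative Nqo2 was lower, at 28.8, 35.4 and 25.0 CPM against 18.3 and 18.2 CPM (-0.71, SE 0.18). The efflux pumps Abcb1a and Abcb1b, close paralogs, were at 1.49 to 2.01 CPM against 3.64 and 2.93 CPM, and at 1.48 to 2.99 CPM against 1.96 and 9.04 CPM. Abcc3, another efflux pump, was at 6.82 to 14.3 CPM against 31.3 and 16.7 CPM (1.28, SE 0.38). Of 17 genes of stavudine phosphorylation and mitochondrial DNA, 12 were lower, with a median of -0.17. Dtymk, the thymidylate kinase that adds the next phosphate to stavudine monophosphate, was at 27.2, 28.5 and 28.3 CPM against 20.4 and 22.5 CPM (-0.39, SE 0.12).

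Of 24 genes of the ErbB family and the output of its MAPK pathway, 18 had a log2 fold change below 0, with a median of -0.45. Errfi1, a feedback inhibitor of ErbB receptors that their signaling induces, was at 319, 231 and 299.8 CPM against 173 and 95.1 CPM (-1.08, SE 0.29). Spred1, an inhibitor of the same pathway, was at 323 to 352 CPM against 273 and 250.3 CPM, and Etv4, a transcription factor of its output, at 39.3 to 62.5 CPM against 23.9 and 36.2 CPM. Erbb3, the partner of HER2, was at 339 to 461 CPM against 301 and 211 CPM (-0.67, SE 0.35). The ligand Nrg1 was on the other side in recurrent tumor 2, at 85.9 CPM beside 3.60 CPM in recurrent tumor 1 and 0.779 to 2.64 CPM in the primary tumors. Among 22 genes of other receptor tyrosine kinases and ligands the median was 0.27, and 0.087 without recurrent tumor 2. Gas6, the ligand of AXL, was at 54.1, 30.6 and 45.9 CPM against 133 and 493 CPM (2.85, SE 0.60), while Ddr1, a collagen receptor, was at 162 to 196 CPM against 141 and 105 CPM (-0.54, SE 0.16).

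Stromal genes were higher in both recurrent tumors. All 22 fibroblast and collagen genes had a log2 fold change above 0, with a median of 1.36. At 18 the groups did not overlap (against 17.6% higher among all genes), 3 had an unadjusted p under 0.05 (against 5.42%) and DESeq2 called none. Their summed level was 1516, 1070.2 and 917 CPM in the primary tumors and 2890 and 3954 CPM in the recurrent tumors. Col1a1, the main chain of type I collagen, was at 145, 91.3 and 94.8 CPM against 484 and 595 CPM (2.29, SE 0.90). Bgn, the matrix proteoglycan biglycan, was at 40.8 to 48.9 CPM against 138 and 215 CPM (1.98, SE 0.71). All 20 matrix proteases and inhibitors were above 0 as well (median 1.32), with 15 free of overlap, against 17.6%, and 4 at an unadjusted p under 0.05, against 5.42%. Timp1, the metalloprotease inhibitor, was at 1.01 to 1.27 CPM against 5.29 and 6.71 CPM, and Mmp9, gelatinase B, at 0.138 to 0.779 CPM against 3.05 and 2.46 CPM. The fit estimates the spread from the plain-water tumors too, of which recurrent replicate 1 had a Col1a1 level of 1708 CPM beside 109 and 289 CPM. Without that tumor, 17 of the 22 fibroblast and collagen genes and 15 of the 20 matrix genes had an unadjusted p under 0.05, in a fit where 1463 of 16722 genes were higher at that level. Without recurrent stavudine tumor 2 the counts were 0 and 2, and without recurrent stavudine tumor 1 they were 1 and 2.

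Luminal epithelial markers were split. Of 21 luminal genes, 9 were higher and 12 lower, with a median of -0.11, and their sum was 5105 to 5600.2 CPM in the primary tumors and 4914 and 3201 CPM in the recurrent tumors. Epcam, the epithelial adhesion molecule, was at 1173, 1169.7 and 1255 CPM against 783 and 426 CPM (-0.99, SE 0.24). Ehf, an epithelial ETS factor, was at 386 to 828 CPM against 382 and 183 CPM, and Muc1, a luminal mucin, higher at 14.6 to 16.3 CPM against 31.3 and 21.1 CPM. Of 14 basal and myoepithelial genes, 12 were higher, with a median of 1.23, which was 0.63 without recurrent tumor 2 and 2.06 without primary tumor 1. Mylk, the myosin light chain kinase, was at 26.9, 23.1 and 33.4 CPM against 48.3 and 97.0 CPM (1.39, SE 0.32). Trp63, the defining basal transcription factor, was at 91.5 CPM in recurrent tumor 2 but at 7.06 CPM in recurrent tumor 1, within the 2.32 to 8.95 CPM of the primary tumors. Acta2, smooth muscle actin, was at 8.29 to 19.3 CPM against 25.9 and 157 CPM (2.56, SE 0.84). Of 21 mesenchymal genes, 20 were higher, with a median of 0.80. Tgfbi, a matrix protein induced by TGF-beta, was at 8.25 to 11.5 CPM against 21.8 and 30.1 CPM, and Vim, vimentin, at 29.5 to 59.3 CPM against 71.1 and 134 CPM.

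Macrophage genes were mostly higher in the recurrent tumors. Of 23 tested, 22 were higher, with a median of 0.88. Of these, 12 had an unadjusted p under 0.05 (against 5.42% of all genes) and 21 did not overlap (against 17.6%). With recurrent tumor 1 left out the median was 0.71, and with recurrent tumor 2 left out it was 0.97. Gpnmb, a glycoprotein of lipid-laden macrophages, was at 0.390, 1.13 and 0.154 CPM against 27.4 and 24.1 CPM (5.53, SE 1.23). Cd163, the haptoglobin-hemoglobin scavenger receptor, was at 3.80, 6.64 and 2.29 CPM against 24.8 and 88.6 CPM (3.74, SE 0.77). Both were several log2 units above the primary tumors, whereas the lineage genes Csf1r and Adgre1 had log2 fold changes of 0.49 (SE 0.33) and 0.51 (SE 0.44). Spp1, osteopontin, which tumor cells also make, was at 57.4, 6.57 and 12.5 CPM against 4576 and 668 CPM, and it made up most of the summed level of the list in recurrent tumor 1, which was 6221 CPM beside 838 to 1036 CPM in the primary tumors. Arg1, arginase 1, was the member below 0 and among the 12 lower genes with the smallest p, at 315, 152 and 100.3 CPM against 30.4 and 13.4 CPM (-3.11, SE 0.61, adjusted p = 0.254 by edgeR).

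Ptprc, the pan-leukocyte CD45, was at 19.0, 26.8 and 25.4 CPM against 34.8 and 31.2 CPM (0.48, SE 0.38). All 11 pan-leukocyte genes were above 0, with a median of 0.78, which was 0.53 without recurrent tumor 1. At 9 the groups did not overlap (against 17.6% higher among all genes), and 3 had an unadjusted p under 0.05 (against 5.42%). T cell genes were scarce, at 13.2 to 17.1 CPM in sum over 17 genes in the primary tumors and 17.8 and 10.1 CPM in the recurrent tumors, with a median of -0.33 and 11 of 17 lower. Cd8a, chosen after its value was seen, was at 1.15 to 2.56 CPM against 2.26 and 0.561 CPM. The log2 fold changes of the T cell list ran from -2.03 to 3.60, with Ctla4 the farthest above 0. At an unadjusted p under 0.05, 1 T cell gene was higher and 0 were lower, against 5.42% and 4.64% of all genes. The groups did not overlap at 2 that were higher and 1 that was lower, against 17.6% in each direction. Of the 12 B and plasma cell genes 5 passed the filter on low counts, with log2 fold changes from -0.62 to 5.04, the highest at Pou2af1. Their median was -0.06, and the median over the 8 NK cell genes was 0.28. S100a8, a neutrophil protein, was at 0 to 0.220 CPM against 1.69 and 4.79 CPM (5.12, SE 1.26). Of the 11 neutrophil genes tested, of 16 listed, 9 were above 0, with a median of 1.06, which was 0.50 without recurrent tumor 1. The number higher without overlap was 7 (against 17.6% of all genes). A gene raised in the recurrent tumors alone can pass the filter through them. With a mean of 10 counts required in every group, 4 remained, with a median of 0.78. Of these, 2 were higher without overlap, where 2680 of 15264 genes were. Itgax, the integrin CD11c, was at 5.60 to 12.6 CPM against 25.5 and 21.9 CPM, among 15 dendritic cell and MHC class II genes with a median of 0.07. Of the 11 MHC class I genes, 9 were lower (median -0.43), with no gene at an unadjusted p under 0.05.

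**Figure D4:**
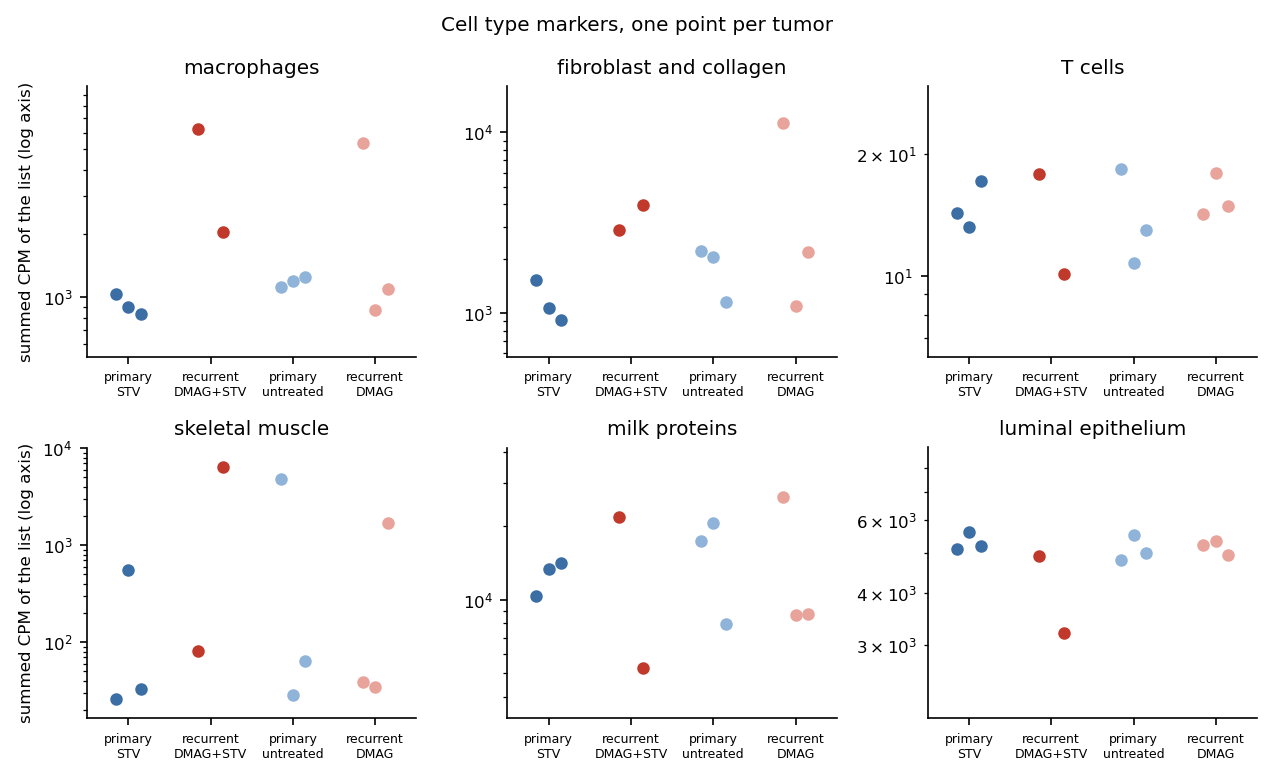
Summed CPM (log axis) of 6 marker lists in each of the 11 tumors, 1 point per tumor. Fibroblast and macrophage sums are higher in both recurrent stavudine tumors than in the primary stavudine tumors, and skeletal muscle and luminal sums set recurrent stavudine tumor 2 apart (6369 CPM and 3201 CPM).

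Markers of tissues next to the tumors followed single libraries. All 16 skeletal muscle genes had a log2 fold change above 0 (median 3.81), and the groups overlapped at all of them, with primary tumor 2 also holding muscle transcripts. Ttn, titin, was at 3629 CPM in recurrent tumor 2, 39.1 CPM in recurrent tumor 1 and 6.57, 258 and 6.97 CPM in the primary tumors. Milk protein genes were uneven, with a median of 0.31 over 11 genes and a sum of 21699 CPM in recurrent tumor 1 against 5240.1 CPM in recurrent tumor 2 and 10324 to 14123 CPM in the primary tumors. Endothelial genes had a median of 0.47 (13 of 13 above 0), which was 0.025 without recurrent tumor 2, and 3 were free of overlap, close to the 17.6% over all genes. Adipocyte genes had a median of 0.45. The part of this tissue makeup in the differences of other genes was not tested.

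Responses to nucleic acids did not separate the groups. Of 30 type I interferon response genes, 16 were higher and 14 lower, with a median of 0.00, none had an unadjusted p under 0.05 and none was free of overlap. Their sum was 1508 CPM in recurrent tumor 1, above the 771 to 1446 CPM of the primary tumors, and 574 CPM in recurrent tumor 2, below them. Without recurrent tumor 2 the median was 0.56, and without recurrent tumor 1 it was -0.96. The 17 genes of cytosolic nucleic acid sensing had a median of 0.01, with 0 at an unadjusted p under 0.05. Of 17 genes of the integrated stress response, 13 were higher (median 0.18). Psat1, an enzyme of serine synthesis, was at 24.2 to 35.7 CPM against 56.0 and 136 CPM (1.73, SE 0.38), and Atf5, a stress-induced transcription factor, at 29.2 to 32.4 CPM against 64.4 and 55.6 CPM (0.98, SE 0.28). The 20 genes of cholesterol synthesis had a median of -0.19.

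The difference between recurrent and primary tumors on stavudine was then set beside the one on plain water, which shares no tumor with it. No gene passed an adjusted p of 0.05 for the difference of the log2 fold changes (0%), and 1322 genes (7.84%) had an unadjusted p under 0.05. DESeq2 called 189. Mitosis genes were the clearest case. No gene passed an adjusted p of 0.05 on plain water alone either (0%), and 9.69% of genes had an unadjusted p under 0.05 there. On plain water all 37 were higher in recurrent than in primary tumors, with a median of 0.50, and the sum over the list was 1199 to 1578 CPM in primary and 1916 to 2043 CPM in recurrent tumors. All 37 had an unadjusted p under 0.05 for the difference between the arms, against 7.84% of all genes, with a median difference of -1.79 (stavudine minus plain water). Leaving out recurrent stavudine tumor 2 or 1 moved the number of genes with an unadjusted p under 0.05 for that difference, over all genes, to 674 or 1812. For Ccnb1 the levels on plain water were 28.9, 20.8 and 28.4 CPM in primary and 35.4, 34.2 and 35.7 CPM in recurrent tumors, and the difference between the arms was -2.03 (SE 0.41, adjusted p = 0.435 by edgeR). The replication list followed with 34 of 34 higher on plain water (median 0.37) and a median difference of -0.67, of which 9 had an unadjusted p under 0.05. Fibroblast and collagen genes (medians 1.36 and 1.24), matrix proteases (1.32 and 1.26), basal genes (1.23 and 1.20) and macrophage genes (0.88 and 0.65) had medians close to each other on stavudine and on plain water, but the tumors on plain water did not all share them. There the summed macrophage level was 5378, 869 and 1090.0 CPM in the recurrent tumors, so that only replicate 1 lay above the 1122 to 1253 CPM of the primary tumors. The summed fibroblast level was 11296, 1098 and 2194 CPM, again with only replicate 1 above the 1147 to 2216 CPM of the primary tumors. Acute phase genes had a median of 0.82 on plain water, where 22 of 23 were higher. The median difference between the arms was 0.18. The mean log2 (CPM + 0.5) of the tested genes was 3.70 to 3.89 in primary and 4.17 to 5.68 in recurrent tumors on plain water. In recurrent stavudine tumors 1 and 2 it was 5.32 and 5.08. An unadjusted p under 0.05 for the difference between the arms was found at 4 of 23, against 7.84% of all genes. Chil1 was among them, with a difference of 3.86 (SE 0.74).

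**Figure D5:**
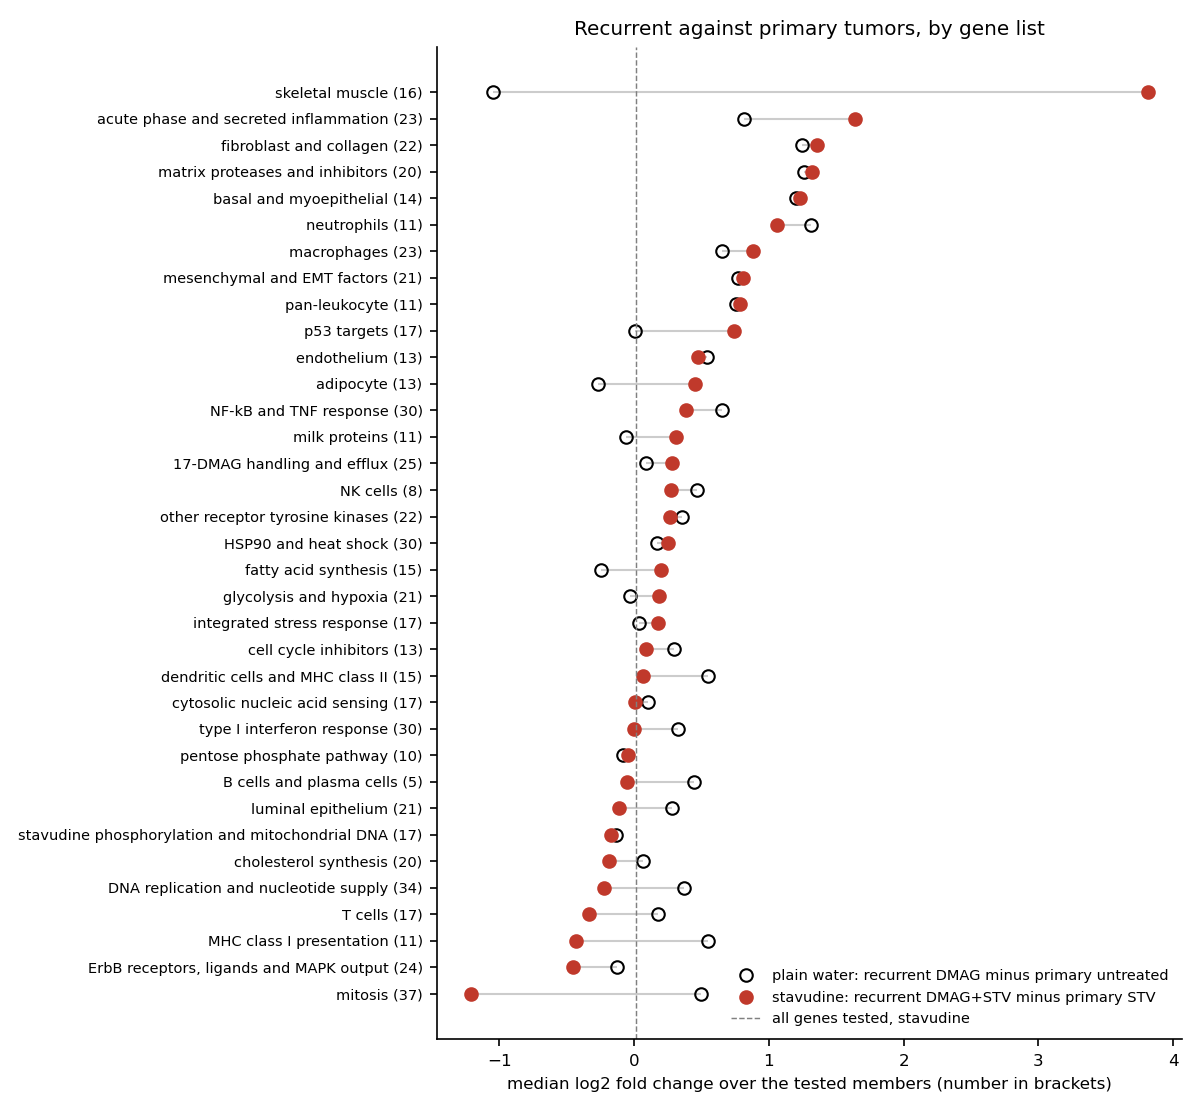
Median log2 fold change of recurrent against primary tumors over the tested members of each of 35 gene lists, on stavudine (filled) and on plain water (open), with the number of tested members in brackets. Mitosis lies at -1.21 on stavudine and at 0.50 on plain water, whereas the fibroblast, matrix, basal and macrophage lists lie close together in both arms.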

How the data were processed

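RNA of whole tumors was sequenced from ribosomal RNA-depleted, strand-marked libraries. Per the labels and the study's methods, the authors converted the base calls with bcl2fastq 2.20, aligned with STAR to the mouse genome (mm10, GRCm38) and counted reads per gene with featureCounts of Subread 1.6.2. The STAR version, the strand setting and the treatment of reads with several alignments are not given in the sources used here. The deposited values are raw counts of 24421 genes, of which 99.5% were matched to RefSeq positions.

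Counts of the 11 tumors were fitted with edgeR 4.0.16 (R 4.3.3; filterByExpr, TMM, robust quasi-likelihood F test, two-sided) with the group as the only term, and Benjamini-Hochberg adjusted over the 16870 genes kept. The threshold for a call was an adjusted p under 0.05. The biological coefficient of variation was 0.402. CPM used the same TMM factors, and the floor was 3 counts per library. The alternatives were DESeq2 1.42.0, which the study used, limma 3.58.1 voom, other scalings and filters, the 5 stavudine tumors alone, a replicate block, a fit without milk, muscle and adipocyte genes, and leaving out each tumor in turn. The steps were tested on simulated data with a smaller spread between tumors than the real data have, so that test does not show how many changes the fit can recover here.

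The samples and the 35 gene lists were chosen with earlier results of these data known. The genes named are the 12 higher and the 12 lower with the smallest p (mean log2 CPM of at least 1, groups not overlapping), the 3 members of each list with the smallest p, the members farthest against a list's direction, and a fixed set (Tkt, Chil1, Acta2, Hspa1a, Hspa1b, Mki67, Erbb2, Abcb1a, Abcb1b, Nqo1 and Ptprc). Also chosen after their values were seen were Adgre1, Cd8a, Cenpf, Cp, Csf1r, Erbb3, Espl1, Etv4, G6pdx, Hsp90aa1, Incenp, Lcn2, Osmr, Saa1, Saa2, Socs3, Spp1, Steap4, Taldo1, Ttn and Vim. Not every gene that meets the rule is reported here.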

Additional observations from a re-analysis of the deposited data

Results flagged for a closer look

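The results below were picked out because every recurrent stavudine tumor lay on one side of the primary stavudine tumors and every recurrent tumor on plain water lay on the opposite side of the untreated primary tumors. Each value is the log2 fold change on stavudine minus the one on plain water. None of these differences passed an adjusted p of 0.05 by edgeR, where the smallest over all genes was 0.435, and for the mitosis list, whose median difference was -1.79, no test was made.

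The genes of division among them were Ccnb1 at -2.03, Cenpa at -1.87, Cenpf at -2.43, Incenp at -1.10, Knstrn at -1.65 and Mki67 at -1.85. Of these 6, Ccnb1, Cenpa, Cenpf, Incenp and Mki67 belong to the mitosis list, so they are not independent of its value. The histone variant H2afz differed by -1.16 and the polymerase subunit Pola1 by -1.16. Tnf, a cytokine at low levels in all these tumors, differed by -2.79. The protocadherin Pcdhgc3, whose reads can be shared with its cluster, was on the other side with 2.45.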

How the results depend on the processing

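Over all genes, DESeq2 called 331 genes and 189 for the difference between the arms, and the 5 stavudine tumors alone gave 2 calls (Adrbk2 and Clca3a2). Leaving out single tumors moved the calls between 0 and 100, the genes at an unadjusted p under 0.05 between 430 and 1463 (higher) and 275 and 1325 (lower), and those without overlap between 2735 and 6000 (higher) and 2977 and 5796 (lower). For the difference between the arms, the calls moved between 0 and 77 and the genes at an unadjusted p under 0.05 between 674 and 2241. Correlations of same-numbered deviations from the group means were -0.031 and 0.143, in 2 pairs. The deviations of the 2 recurrent tumors mirror each other, so these values cannot show whether the replicate numbers pair the tumors. With a replicate block, 0 genes were called and 1178 had an unadjusted p under 0.05, instead of 1696.

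Some medians changed sign. The type I interferon median was -0.0017 with DESeq2 and with median-ratio factors, -0.17 with limma voom, -0.034 with library totals, -0.0091 without a filter, -0.0088 in the 5 tumors alone and -0.014 without milk, muscle and adipocyte genes. In the same order from library totals on, nucleic acid sensing was at -0.021, -0.0057, -0.00086 and -0.0094. Milk proteins were at -0.056 with the replicate block, B cells at 0.023 with limma voom and 0.44 with the filter of 10 counts, and NK cells at -0.42 with that filter. When single tumors were left out, medians ranged from -0.16 to 0.35 (cell cycle inhibitors), -0.16 to 0.10 (pentose phosphate), -0.96 to 0.56 (interferon), -0.24 to 0.10 (sensing), -0.43 to 0.027 (luminal), -0.38 to 2.19 (milk), -0.94 to 0.11 (T cells), -0.38 to 0.73 (B cells), -0.75 to 0.59 (NK cells), -0.14 to 0.30 (dendritic cells), -1.33 to 0.045 (MHC class I), -1.44 to 8.40 (muscle) and -0.97 to 1.23 (adipocyte). The log2 fold changes ranged from -0.33 to 0.43 (Erbb2), -0.26 to 0.94 (Hspa1a), -0.19 to 0.68 (Hspa1b), -0.038 to 2.16 (Abcb1b), -1.68 to 0.34 (Cd8a), -1.36 to 0.96 (Cp), -0.19 to 0.21 (G6pdx), -0.010 to 0.22 (Taldo1) and -1.20 to 8.06 (Ttn). With limma voom Cp was at -0.11 and G6pdx at 0.018, and with the replicate block Cp was at -0.041. The cause was not tested. Of the 97 genes described in the report, 45 passed an adjusted p of 0.05 with DESeq2, where 1.96% of all genes did. Without replicate 1 of the recurrent tumors on plain water 8 passed by edgeR, where 18 of 16722 genes did. Many of the 97 were named for a small p in this same comparison, so these counts follow in part from that choice and are a description. The other genes described kept their sign under the alternatives that gave them a value.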
